A study of Mus musculus with 384 samples.

Results

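Mt1, Mt2, Slc39a4, Slc39a5, Slc39a14, Slc30a1 and Slc30a10 are 7 mouse genes that bind zinc or carry metal ions across membranes, picked by name from the 21454 genes of a liver RNA-seq table. All 7 are in the table and all 7 passed the filter on low values, as did 14602 genes in all. Livers came from 192 Diversity Outbred mice (J:DO stock), an outbred population in which each animal is genetically distinct, labelled wild type and killed at 26 weeks. From weaning they ate either a high-fat diet (HF) with 22% fat by weight or standard chow with 6%. There were 46 HF males, 48 chow males, 48 HF females and 50 chow females. A second label, for generation, put 97 mice in G11L1 and 95 in G11L2, and each group held both. Each mouse is 1 column of the table, and its 2 technical repeats are already merged there, so p-values measure the spread between mice.

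Zinc in a cell is set by import, export and storage. ZIP proteins, encoded by Slc39a genes, bring zinc into the cytosol, and ZnT proteins, encoded by Slc30a genes, move it out of the cytosol. Metallothioneins are small cysteine-rich proteins that hold zinc and copper, and the zinc-sensing factor MTF1 turns their genes on through short metal response elements near the start of transcription. In the liver, metallothionein genes and Slc39a14 are also known targets of interleukin-6 and of the acute phase response.

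The genes lie on 5 chromosomes of GRCm38 (GENCODE M21 annotation). Mt1 (ENSMUSG00000031765, chr8:94179082-94180327, plus strand) starts 5513 bases beyond the end of its neighbour Mt2 (ENSMUSG00000031762, chr8:94172664-94173568, plus strand). Slc39a4 (ENSMUSG00000063354, chr15:76612383-76617384, minus strand) encodes ZIP4, the main zinc importer of the gut. Slc39a5 (ENSMUSG00000039878, chr10:128395931-128401229, minus strand) encodes ZIP5, known on the basolateral face of enterocytes and pancreatic acinar cells. Slc39a14 (ENSMUSG00000022094, chr14:70303469-70351425, minus strand) encodes ZIP14, which brings zinc, manganese and iron not bound to transferrin into hepatocytes. Slc30a1 (ENSMUSG00000037434, chr1:191906767-191913247, plus strand) encodes ZnT1, the zinc exporter of the plasma membrane. Slc30a10 (ENSMUSG00000026614, chr1:185454848-185468762, plus strand) encodes ZnT10, which exports manganese. No stretch of 100 bases, the length of a read, was shared between the transcripts of these genes and those of any other gene.

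Promoter windows from RefSeq (GRCm38.p6), running from 250 bases before the RefSeq start of transcription to 50 after it, were found for 5 of the 7 genes. The Mt2 window ends at 94172667, just past the GENCODE start of Mt2 at 94172664, so nearly all of it lies before that start. The 4 windows shown were taken because they carry the core of the metal response element more than once, the element through which MTF1 is known to act on metallothionein genes. Capitals mark the core, spelled TGCACNC or TGCGCNC and searched on both strands, so that it can also read GNGTGCA or GNGCGCA. Mt2 is at chr8:94172368-94172667, Mt1 at chr8:94178839-94179138, Slc30a1 at chr1:191906531-191906830 and Slc30a10 at chr1:185454598-185454897, each on the plus strand.
Mt2: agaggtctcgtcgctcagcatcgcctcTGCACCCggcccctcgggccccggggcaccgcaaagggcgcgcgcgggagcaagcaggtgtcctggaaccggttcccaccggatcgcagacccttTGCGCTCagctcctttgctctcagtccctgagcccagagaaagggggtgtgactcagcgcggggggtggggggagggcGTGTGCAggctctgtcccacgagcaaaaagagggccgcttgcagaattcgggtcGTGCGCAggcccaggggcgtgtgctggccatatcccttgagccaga
Mt1: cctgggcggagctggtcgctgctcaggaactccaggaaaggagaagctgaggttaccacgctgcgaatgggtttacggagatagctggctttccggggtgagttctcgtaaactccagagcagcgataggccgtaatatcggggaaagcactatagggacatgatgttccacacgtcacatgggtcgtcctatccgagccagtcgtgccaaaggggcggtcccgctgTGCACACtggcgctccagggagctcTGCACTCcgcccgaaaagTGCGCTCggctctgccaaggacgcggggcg
Slc30a1: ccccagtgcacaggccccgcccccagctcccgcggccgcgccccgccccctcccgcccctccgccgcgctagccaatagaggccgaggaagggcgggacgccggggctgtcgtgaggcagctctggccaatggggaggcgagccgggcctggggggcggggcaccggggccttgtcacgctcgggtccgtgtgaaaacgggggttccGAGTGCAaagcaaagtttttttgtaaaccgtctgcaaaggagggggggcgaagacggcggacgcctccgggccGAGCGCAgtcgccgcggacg
Slc30a10: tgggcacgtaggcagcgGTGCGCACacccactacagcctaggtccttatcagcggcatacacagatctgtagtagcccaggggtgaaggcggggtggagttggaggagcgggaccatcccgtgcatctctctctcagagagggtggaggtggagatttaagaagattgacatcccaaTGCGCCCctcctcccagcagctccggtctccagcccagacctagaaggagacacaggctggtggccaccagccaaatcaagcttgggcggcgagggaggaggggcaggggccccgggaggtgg
The Mt2 window held 4 matches, the Mt1 window 3, the Slc30a10 window 3 and the Slc30a1 window 2. In the Slc30a10 window, 2 of the 3 matches overlap each other on opposite strands. Slc39a5 has 2 windows, with 1 match and 0 matches. Of 32851 mouse promoter windows of the same length, 25.7% held at least 1 match, 7.11% at least 2, 1.97% at least 3 and 0.518% at least 4. The E-box CACGTG, held by 7.15% of windows, and the STAT element TTCNNNGAA, held by 8.30%, were in none of these windows. A match describes the letters only and shows no binding.

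Values are the deposited signal, scaled by the authors to the upper quartile of each sample, at an estimated depth of 9.79 to 17.9 M reads per mouse (median 14.2 M). Transcripts of hepatocytes dominated: 5 of 6 hepatocyte markers were in the table and their summed signal had a median of 1.68e+04 in HF males, 2.08e+04 in chow males, 2.13e+04 in HF females and 2.41e+04 in chow females. Pancreatic acinar transcripts stood out in 11 mice (summed signal 29.4 to 1.26e+03, against at most 13.6 in all others), of which 2 were HF males, 4 chow males, 2 HF females and 3 chow females. In 1 mouse labelled female Xist was low, and without it the sex difference of Mt1 given below was -2.07. In bulk tissue, fewer cells of a type and less RNA per cell cannot be told apart.

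Per kilobase of the longest annotated protein-coding transcript, Mt2 had the highest mean signal over all mice (47.0 per kb). Mt1 (28.3) and Slc39a14 (12.65) came next. The order of Mt1 and Mt2 depends on the lengths used, 1.085 kb for Mt1 and 0.511 kb for Mt2. Before division the mean signal was 30.7 for Mt1 and 24.0 for Mt2. Slc39a4 averaged 4.225 per kb, Slc30a10 2.16, Slc30a1 2.10 and Slc39a5 0.509. By this measure the metallothioneins led and ZIP14 came first among the transporters.

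Metallothionein levels differed enormously between animals of the same sex and diet. The lowest, median and highest signal of Mt1 were 0.861, 5.24 and 107 in HF males. In chow males they were 0.387, 6.28 and 226. HF females had 2.73, 34.95 and 136, and chow females 0.776, 32.35 and 114. All 4 ranges overlapped, but the female medians lay far above the male ones. Mt1 passed a signal of 10 in 14 of 46 HF males, 18 of 48 chow males, 41 of 48 HF females and 44 of 50 chow females. Among chow males 5 mice passed 100, so the highest livers of the series were in a group with a low median.

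Mt2 followed the same pattern. Its lowest, median and highest signal were 0.24, 3.41 and 91.7 in HF males and 0.180, 5.37 and 251.5 in chow males. In HF females they were 0.8555, 22.7 and 112, and in chow females 0.75, 25.0 and 98.5. Again the ranges overlapped while the medians of both female groups stood above both male medians.

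Slc39a5 was close to silent in most males. Its lowest, median and highest signal were 0, 0.0581 and 1.74 in HF males, with 9 mice at 0, and 0, 0.0502 and 0.411 in chow males, with 7 mice at 0. HF females had 0.2175, 2.42 and 14.4, and chow females 0.0118, 0.223 and 2.76. The HF females stood apart from the other groups, with 41 of 48 above a signal of 1, against 2 of 46 HF males, 0 of 48 chow males and 7 of 50 chow females. The median male level corresponds to about 3.00 reads, so differences among males near or below it could not be resolved at this depth.

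The other importers varied less. Slc39a4 had a lowest, median and highest signal of 2.61, 10.7 and 17.8 in HF males, 4.83, 12.5 and 19.6 in chow males, 5.735, 12.55 and 16.6 in HF females, and 6.46, 10.95 and 17.2 in chow females. Slc39a14 had 30.9, 57.4 and 136 in HF males, 31.1, 65.1 and 208 in chow males, 34.9, 52.2 and 96.8 in HF females, and 42.5, 60.1 and 99.7 in chow females. All groups overlapped broadly for both genes, and the highest Slc39a14 values were in males.

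Of the exporters, Slc30a1 was the steadiest of the 7 genes. Its lowest, median and highest signal were 6.36, 10.07 and 15.2 in HF males, 8.95, 12.6 and 17.8 in chow males, 7.09, 10.0 and 12.6 in HF females, and 7.795, 10.7 and 14.1 in chow females. Slc30a10 had 4.19, 10.8 and 23.95 in HF males, 6.78, 16.2 and 30.4 in chow males, 2.61, 7.63 and 15.0 in HF females, and 5.06, 13.4 and 25.45 in chow females. The chow group had the higher Slc30a10 median within each sex, with overlapping ranges.

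**Figure D1:**
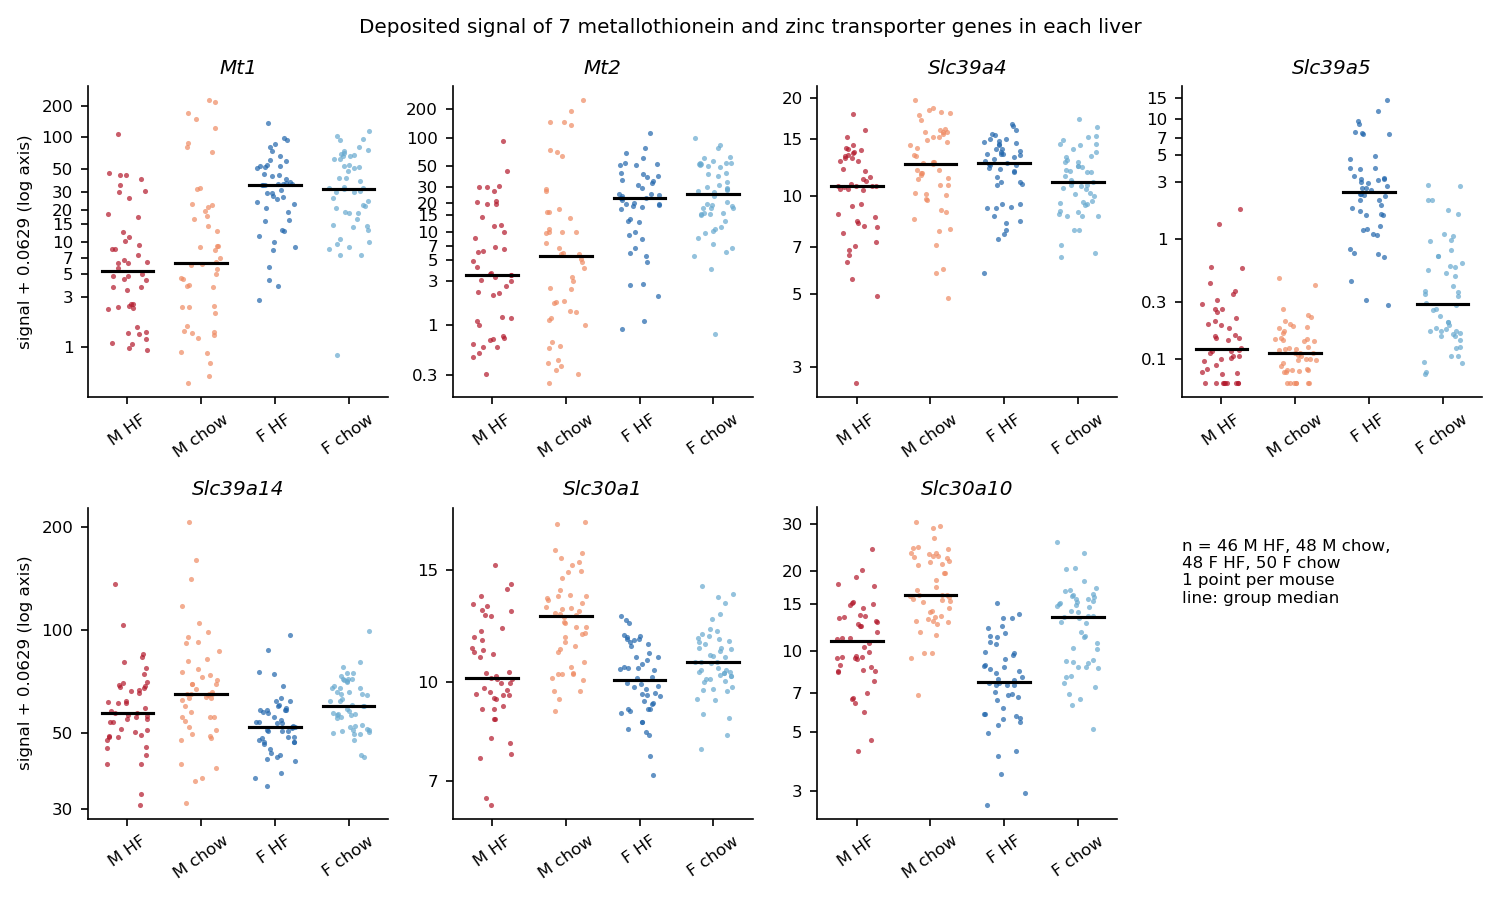
Deposited signal (plus the pseudocount of 0.0629, log axis) of each gene in each of the 192 livers, 1 point per mouse, with the group median as a line. Mt1 and Mt2 medians are higher in females, Slc39a5 is high mainly in HF females (median 2.42), and Slc30a10 is lower on HF than on chow in each sex.

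The spread between mice within groups and generations, as the standard deviation of log2 signal, was 1.92 for Mt2, 1.69 for Mt1 and 1.19 for Slc39a5. These placed Mt2 at rank 146, Mt1 at rank 224 and Slc39a5 at rank 545 from the top among the 14602 genes, whose median was 0.325. Slc30a10 had 0.53, Slc39a4 0.42, Slc39a14 0.37 and Slc30a1 0.22, so ZnT1 varied less than the median gene. The share of log2 variance lying between the 4 groups was 67.8% for Slc39a5 and 39.8% for Slc30a10, against 26.5% for Mt1, 23.1% for Mt2, 22.3% for Slc30a1, 9.5% for Slc39a14, 5.73% for Slc39a4 and a median of 13.9% over all genes. Most of the metallothionein variation thus lay between mice of one sex and diet.

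Differences below are log2 ratios of signal plus 0.0629, which understates changes of low genes, from limma with Benjamini-Hochberg adjustment over all 14602 genes. Males had lower metallothionein and Slc39a5 transcripts than females, and higher Slc30a10, averaged over diets. Of the 7 genes, 3 were higher and 3 lower in males at adjusted p below 0.05, where 68.5% of all genes were called, so the number of calls is near the background and the sizes carry the description. On HF alone 1 was higher and 4 lower, where 49.7% of all genes were called, and on chow alone 2 were higher and 3 lower, where 63.3% were. The median difference over all genes, averaged over diets, was 0.071. Rescaling by median of ratios moved the all-gene median to -0.0082 from 0.10 for the sex difference on chow, to 0.0052 from -0.097 for the diet difference in males, and to 0.013 from -0.14 for HF females against chow males.

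Mt1 averaged 12.9 ± 19.3 in HF males and 30.2 ± 55.6 in chow males, against 38.4 ± 27.8 in HF females and 40.2 ± 28.7 in chow females (SD). The male minus female difference of Mt1 was -2.07 ± 0.25 (SE, adjusted p = 2.16e-13), a ratio of 0.238. It was -2.24 on HF (adjusted p = 3.22e-08) and -1.90 on chow (adjusted p = 8.13e-07). Mt2 averaged 10.11 ± 16.1 in HF males and 27.6 ± 55.4 in chow males, against 27.0 ± 22.3 in HF females and 30.6 ± 22.4 in chow females, and its difference was -2.13 ± 0.29 (adjusted p = 1.70e-11). The means hide how different the male and female distributions are, since a few very high chow males lift their group's mean close to the female means. On chow the sex difference in G11L1 mice alone was -2.95 for Mt1 and -3.16 for Mt2, and in G11L2 mice alone it did not pass the test at -0.93 for Mt1 (limma adjusted p = 0.13) and -1.05 for Mt2 (limma adjusted p = 0.142). The G11L2 minus G11L1 difference of that sex difference was 2.02 ± 0.68 for Mt1 and 2.11 ± 0.77 for Mt2, neither passing adjustment (limma adjusted p = 0.969 for both). Without the 8 chow males of one run of numbers, described next, the sex difference on chow was -2.58 for Mt1 and -2.83 for Mt2.

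All 5 chow males with Mt1 above 100 came from one run of 8 consecutive mouse numbers, all labelled G11L2, taken here from the first to the last of those 5. In that run Mt1 had a lowest, median and highest signal of 4.38, 136 and 226, and the other chow males had a median of 5.16 and a highest value of 88.9. Mt2 had 2.38, 141 and 251.5 in the run, and the others a median of 3.63. Slc39a14 had 40.6, 111 and 208 in the run, and the others a median of 64.2 and a highest value of 98.9. The labels do not say what the numbers share. The run was picked out after its values were seen, and leaving out all 8 mice, high or low, is one of the settings used below.

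Slc39a5, the ZIP5 gene, had the largest sex difference of the 7 genes over both diets and on HF, while on chow those of Mt1 and Mt2 were larger. It averaged 0.168 ± 0.319 in HF males and 0.0728 ± 0.0822 in chow males, against 3.345 ± 3.09 in HF females and 0.521 ± 0.681 in chow females. Its male minus female difference was -3.96 on HF (adjusted p = 8.00e-36) and -1.55 on chow (adjusted p = 3.09e-09), and -2.76 ± 0.17 over both diets (adjusted p = 4.08e-36). These sizes depend on the pseudocount because many males were near 0: with 10 times the pseudocount the difference over both diets was -1.29, still past the test.

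Slc30a10, the manganese exporter, was higher in males by 0.49 ± 0.075 (adjusted p = 3.38e-09), with means of 11.3 ± 4.12 in HF males and 17.9 ± 5.61 in chow males, against 8.06 ± 2.94 in HF females and 13.0 ± 4.45 in chow females. Slc30a1 was higher in males by 0.13 ± 0.033 (adjusted p = 0.000282), a call that was lost with median-of-ratios scaling (0.039), with quantile normalization (0.022) and in G11L1 mice alone (0.074). Slc39a14 was higher in males by 0.14 ± 0.054 (adjusted p = 0.0155), and this call too was lost under both scalings (0.054 and 0.066), within each generation label (0.12 and 0.15) without the 10 mice least like the others (0.079) and without the chow males of that run (0.066). Slc39a4 did not pass the test at -0.052 ± 0.060 (adjusted p = 0.4515), passed it as lower in males at -0.14 with median-of-ratios scaling and -0.16 with quantile normalization, and was positive at 0.016 in G11L1 mice alone. For ZnT10 and for the metallothioneins and ZIP5, sign and call over both diets held under each of these settings.

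Markers of immune cells moved with sex. All 6 Kupffer cell markers and all 6 T, NK and B cell markers were lower in males, a direction called for 23.5% of all genes, and the median summed Kupffer signal was 69.95 in HF males and 58.3 in chow males, against 97.0 in HF females and 92.4 in chow females. Summed signal ran from 31.25 to 153 in HF males and from 27.3 to 98.65 in chow males, against 31.4 to 169 in HF females and 43.5 to 248 in chow females. Their part in the sex differences of these genes was not tested. Slc39a5 is known in pancreatic acinar cells. Among the 11 mice with pancreatic transcripts, the 4 chow males ranked 1, 2 (0.411 and 0.353), 6 and 21 of 48 from the top for Slc39a5. The HF males ranked 9 and 42 of 46, the chow females 16, 22 and 28 of 50, and the HF females 37 and 44 of 48. Within groups limma associated 0 of 10 acinar markers with Slc39a5. The part of pancreatic transcripts in the sex difference was not tested. Without those 11 mice the sex difference of Slc39a5 was -2.83 and that of Mt1 -2.19.

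Slc39a5 rose on HF in females. HF females had a mean signal of 3.345, against 0.521 in chow females, a difference of 2.77 ± 0.24 (adjusted p = 1.01e-20) or 6.81-fold on the scale with the pseudocount. In males the difference was 0.36 ± 0.24 and did not pass the test (adjusted p = 0.213). The diet difference in males minus that in females was -2.41 ± 0.34 (adjusted p = 7.40e-08) for Slc39a5. The diet difference in females was 1.62 with 10 times the pseudocount and 3.17 with one 10 times smaller, and it was 2.66 in G11L1 mice and 2.87 in G11L2 mice. The summed acinar signal had a lower median in HF females, 1.26, against 3.21 in chow females, and the 2 HF females with pancreatic transcripts ranked 44 and 37 of 48 for Slc39a5. The 2 intestinal markers in the table had a summed median of 26.2 in HF females (15.35 to 51.6), against 11.8 in chow females (4.33 to 25.8), and 19.7 in HF males (11.2 to 32.65), against 11.8 in chow males (5.76 to 25.1). The part of pancreatic transcripts and of these intestinal markers in the rise of Slc39a5 was not tested. Within groups, which leaves out the difference between diets, neither intestinal marker was associated with Slc39a5 at limma adjusted p below 0.05.

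Slc30a10 fell on HF in both sexes. HF males averaged 11.3, against 17.9 in chow males, a difference of -0.68 ± 0.11 (adjusted p = 3.5e-08). HF females averaged 8.06, against 13.0 in chow females, a difference of -0.70 ± 0.11 (adjusted p = 2.07e-08). In each case the highest HF mouse stayed below the highest chow mouse while most of the ranges overlapped.

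Slc30a1, Slc39a4 and Slc39a14 were lower on HF in males by smaller amounts. Slc30a1 averaged 10.5 ± 2.03 in HF males and 12.6 ± 2.13 in chow males, a difference of -0.27 ± 0.047 (adjusted p = 3.4e-07), and it did not pass the test in G11L1 mice alone (-0.14). In females its difference was -0.096 (adjusted p = 0.0915). The difference of Slc39a4 in males was -0.26 ± 0.086 (adjusted p = 0.00753), with means of 10.55 ± 3.14 in HF males and 12.6 ± 3.64 in chow males, and the call was lost at -0.15 with median-of-ratios scaling, at -0.12 with quantile normalization and at -0.21 in G11L1 mice. In females Slc39a4 was 0.11 on HF minus chow and did not pass the test (adjusted p = 0.333). The difference between the sexes in this diet response was -0.37 ± 0.12 for Slc39a4 (adjusted p = 0.0368), and it passed in neither generation alone, under neither scaling and not without the filter on low values. For Slc39a14 HF minus chow was -0.20 ± 0.078 in males (adjusted p = 0.0210) and -0.19 ± 0.076 in females (adjusted p = 0.0374). Neither Slc39a14 call held under median-of-ratios scaling (-0.095 in males, -0.15 in females) or quantile normalization (-0.033 in males, -0.077 in females), in G11L1 males the sign turned (0.034), and without the chow males of that run the male call was lost (-0.058).

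Together, 4 of the 7 genes were lower on HF in males, where 51.2% of all genes were called (1669 higher and 5810 lower, or 2827 and 2453 with median-of-ratios scaling), and 3 passed in females, where 33.3% were called (1460 higher and 3400 lower, or 2194 and 2142). Over both sexes 1 of the 7 genes was higher and 3 were lower on HF, where 56.9% of all genes were called. With either scaling, 2 of the 7 genes, Slc30a10 and Slc30a1, were called in males. The sex difference in the diet response was called for 2 of the 7 genes and for 8.38% of all genes.

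No diet difference of Mt1 or Mt2 passed the test over both generation labels. Mt1 was -0.38 ± 0.36 on HF minus chow in males (adjusted p = 0.389) and -0.043 ± 0.35 in females (adjusted p = 0.939), where the female value turned positive under both scalings (0.0036 and 0.044) and in G11L1 mice (0.28). Mt2 was -0.44 ± 0.41 in males (adjusted p = 0.373) and -0.32 ± 0.40 in females (adjusted p = 0.574), where the female value of Mt2 was 0.054 in G11L1 mice. The generation labels went apart in males: in G11L1 males Mt1 averaged 15.0 on HF and 10.8 on chow, and in G11L2 males 10.4 on HF and 48.0 on chow. The medians lay closer, at 7.44 on HF and 3.83 on chow in G11L1 males and 3.67 on HF and 9.18 on chow in G11L2 males. Without the chow males of that run the diet difference in males of both generations turned positive, at 0.28 for Mt1 (limma adjusted p = 0.505) and 0.31 for Mt2 (limma adjusted p = 0.512). In G11L2 males alone the diet difference passed the test at -1.56 for Mt1 and -1.82 for Mt2, and in G11L1 males it was 0.82 for Mt1 and 0.95 for Mt2. A test of that generation by diet difference in males gave -2.38 ± 0.69 for Mt1 (p = 0.000741 unadjusted, limma adjusted p = 0.349) and -2.77 ± 0.79 for Mt2 (limma adjusted p = 0.349). This limma test called 0 genes of 14602 (0%), with 982 at unadjusted p below 0.05, and it was added after the values by generation had been seen.

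**Figure D2:**
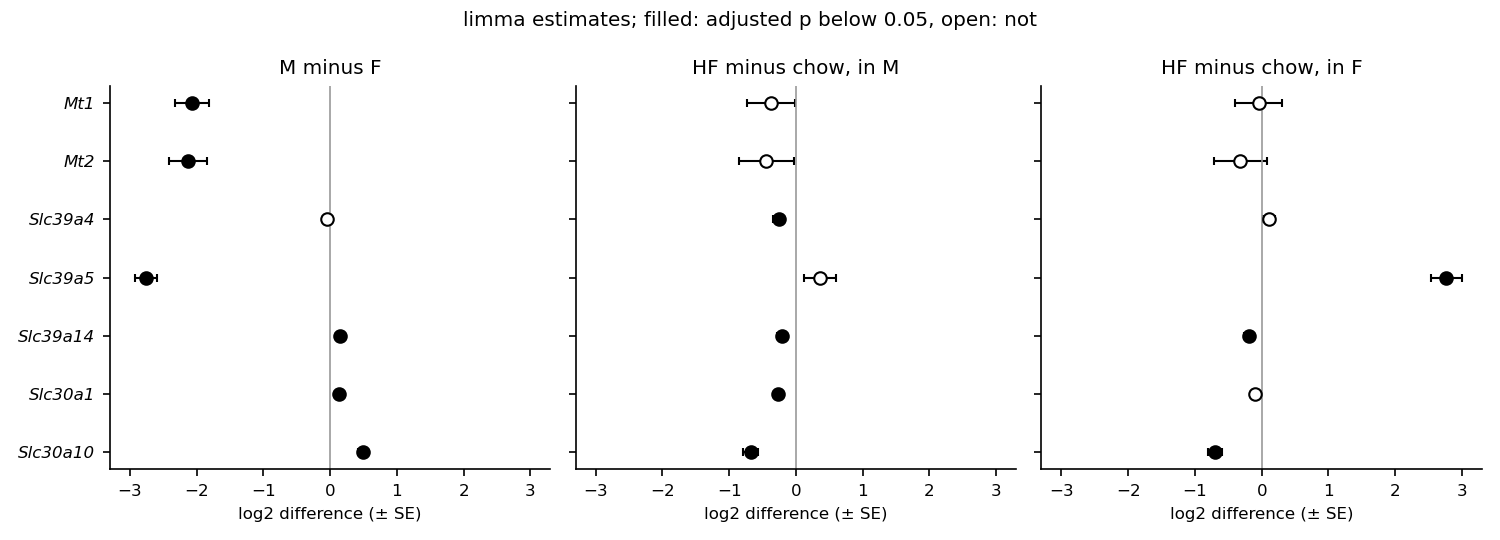
Log2 differences with standard errors from limma for the 7 genes: males minus females over both diets, HF minus chow in males, and HF minus chow in females. Filled points passed adjusted p below 0.05. The metallothioneins and Slc39a5 lie far to the left for sex, and Slc39a5 stands alone at 2.77 for diet in females.

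The order of the groups differed by gene. For Mt1 and Mt2 the lowest to highest fitted levels were HF males, chow males, HF females and chow females, and only the step from chow males to HF females passed the test (1.86 for Mt1 and 1.75 for Mt2). For Slc39a5 the order was chow males, HF males, chow females and HF females. The step from chow males to HF males did not pass the test (0.36, limma adjusted p = 0.213). Slc39a4 had no step between neighbours that passed. Slc39a14 ran HF females, HF males, chow females and chow males, also with no step passing. Slc30a1 and Slc30a10 had that same order; for Slc30a1 only the last step passed (0.21, limma adjusted p = 1.62e-05, lost with quantile normalization at 0.074 and in G11L1 mice at 0.13), and for Slc30a10 the first and the last did.

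Averaged over the groups, no level differed by generation label or coat colour at the threshold. In chow males Mt1 averaged 10.8 in G11L1 and 48.0 in G11L2, with medians of 3.83 and 9.18. Mt2 averaged 8.01 in G11L1 and 45.5 in G11L2 chow males, with medians of 2.45 and 9.69. A generation difference within chow males was not tested. For G11L2 minus G11L1 limma called 0 of the 7 genes (0 at unadjusted p below 0.05), with 0.938% of all genes called. Coat was compared in 131 agouti, 30 black and 25 white mice: 0 of the 7 genes were called for white against the mean of agouti and black (0 at unadjusted p below 0.05; 0.0137% of all genes) and 0 for black against agouti (1 at unadjusted p below 0.05; 0.089% of all genes). That one was Slc39a4, at 0.18 higher in black mice (limma adjusted p = 0.447).

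Metallothionein levels were also more scattered among males. The absolute deviation of log2 signal from the group median was larger in males than in females by 0.71 ± 0.16 for Mt1 (limma adjusted p = 0.00124) and by 0.90 ± 0.18 for Mt2 (limma adjusted p = 0.000172). Slc39a14 was more scattered in males by 0.12 ± 0.037 (limma adjusted p = 0.0243) and Slc30a1 by 0.062 ± 0.020 (limma adjusted p = 0.0473). Slc39a5 was less scattered in males by this measure (-0.36 ± 0.11, limma adjusted p = 0.0298), a sign that turned to 0.23 with a pseudocount 10 times smaller. In all, 4 of the 7 genes had more and 1 less scatter in males, where 4.9% of all genes were called, but within generations the count fell to 2 in G11L1 and 0 in G11L2, and it was 3 without the 10 least similar mice and 2, Mt1 and Mt2, without the chow males of that run. For HF against chow limma called 0 of the 7 genes (0 at unadjusted p below 0.05; 2.23% of all genes).

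Whether the 7 genes varied together was examined over all 192 mice, after taking out the mean of each group in each generation. Of 21 pairs, 10 passed a permutation test of Pearson's r with adjustment over the 21. Mt1 and Mt2 moved almost as one. Their r was 0.96 (Spearman's rho 0.96), from 0.95 to 0.97 within the 4 groups, 0.94 in G11L1 and 0.98 in G11L2, with a permutation p of 1e-05, the smallest that 100000 permutations can give (adjusted p = 4.2e-05). Without the 2 mice farthest from the median of Mt1 it was 0.96. Mt1 signal was above Mt2 signal in 39 of 46 HF males, 40 of 48 chow males, 47 of 48 HF females and 43 of 50 chow females. The log2 ratio of Mt1 to Mt2 averaged 0.64 on HF and 0.47 on chow, a difference of 0.17 that did not pass a permutation test after adjustment (p = 0.0319, adjusted p = 0.0638, 2 comparisons, two-sided). It averaged 0.58 in males and 0.53 in females (permutation p = 0.483).

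**Figure D3:**
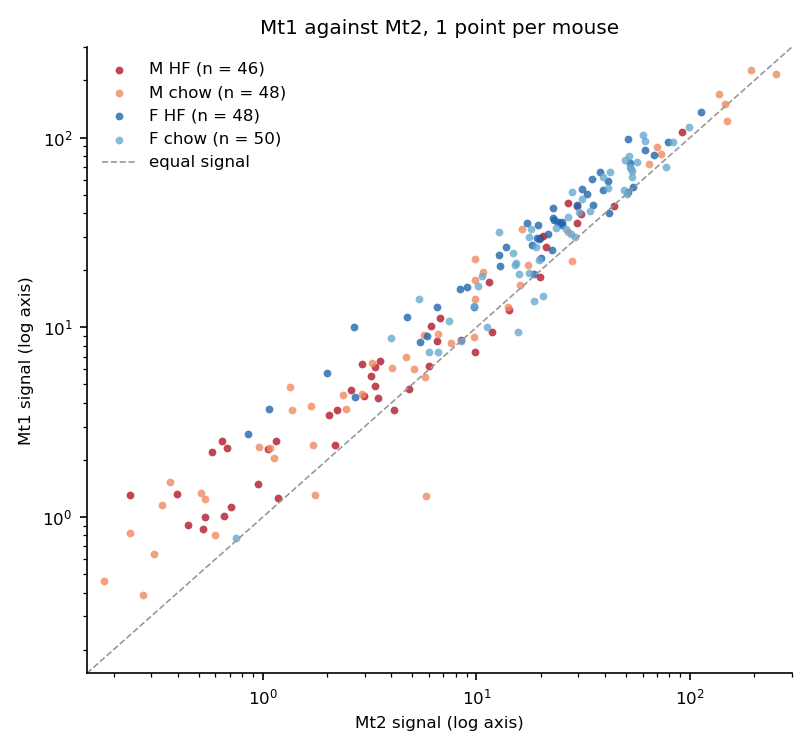
Signal of Mt1 against signal of Mt2 on log axes, 1 point per mouse, coloured by group, with the line of equal signal dashed. The points follow a single band (r 0.96 within groups), and most lie on the Mt1 side of the line.

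Slc39a14 had the highest r with the metallothioneins of the 5 transporters. Its r with Mt1 was 0.50 (rho 0.42, permutation adjusted p = 4.2e-05), with 0.46 in HF males, 0.65 in chow males, 0.32 in HF females and 0.22 in chow females. It was 0.496 in G11L1, 0.50 in G11L2 and 0.51 without the 2 mice farthest in Mt1, and 0.39 without the chow males of that run. The r of Slc39a14 with Mt2 was 0.45 (rho 0.36, permutation adjusted p = 4.2e-05), and 0.33 without those males. Among the other zinc transporters, r with Mt1 reached 0.46 in the ZIP list and 0.31 in the ZnT list. In the limma fits 2 of 10 other ZIP genes rose with Mt1, Slc39a1 and Slc39a13, and 3 fell, and 1 of 6 other ZnT genes rose, Slc30a5. Of all genes 13% were associated with Mt1 in either direction and 4.55% positively.

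Slc30a10 went the other way. With Mt1 its r was -0.33 (rho -0.39, permutation adjusted p = 4.2e-05), with -0.32 in HF males, -0.32 in chow males, -0.11 in HF females and -0.63 in chow females. The sign was the same in G11L1 (-0.31) and G11L2 (-0.35), and r was -0.33 without the 2 farthest mice. With Mt2 the r of Slc30a10 was -0.27 (rho -0.33, permutation adjusted p = 0.000245).

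Weaker pairs involved Slc30a1. It followed Slc39a14 with an r of 0.33 (rho 0.31, permutation adjusted p = 4.2e-05), Mt1 with 0.23 (rho 0.18, adjusted permutation p = 0.0073) and Mt2 with 0.21 (adjusted permutation p = 0.0158), where rho did not pass (0.17, adjusted permutation p = 0.0512). Within generations neither pair passed (0.23 in each for Mt1, 0.17 and 0.23 for Mt2). With Slc39a4 its r of 0.21 passed (adjusted permutation p = 0.0174) but rho did not (0.12, adjusted permutation p = 0.153), and r fell to 0.14 under both scalings. Over all genes, r with Slc30a1 had a median of 0.083 and ran from -0.19 to 0.32 between the 5th and the 95th percentile. The r of Slc30a1 with Mt1, Mt2 and Slc39a4 lay inside this range, and that with Slc39a14 at its upper edge. Limma associated 33.2% of all genes with Slc30a1. Slc39a5 and Slc39a14 had an r of -0.19 (rho -0.18, adjusted permutation p = 0.00525), which did not pass in G11L1 (-0.11). The other pairs did not pass. Slc39a4 with Mt1, at 0.040 over all mice, was 0.33 in HF males, 0.056 in chow males, -0.054 in HF females and -0.45 in chow females, a difference between groups that was not tested.

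**Figure D4:**
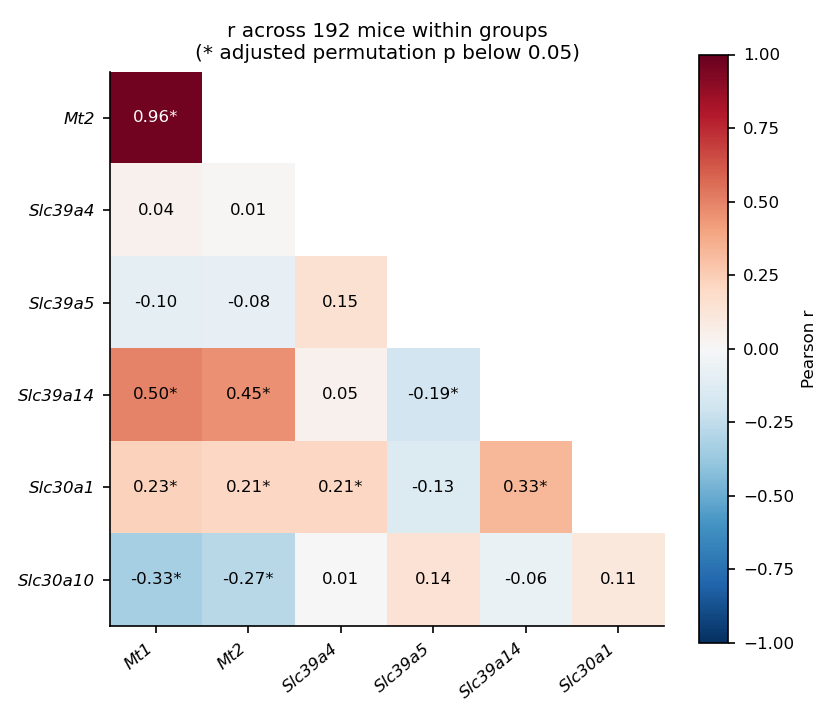
Pearson's r between each pair of the 7 genes over 192 mice, after removing group by generation means. A star marks an adjusted permutation p below 0.05. The Mt1 and Mt2 cell stands at 0.96, the Slc39a14 cells with both metallothioneins at 0.50 and 0.45, and the Slc30a10 cells with both at -0.33 and -0.27.

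To see which other genes each one resembled, the same within-group r was ranked over 10250 genes with a symbol and a mean signal of at least 10 pseudocounts, as a description. After Mt2, the genes most like Mt1 were Gskip (0.56), Tmco4 (0.54), Srrm4 (0.53), Slc39a14 (0.50) and Stat3 (0.50), the transcription factor that carries interleukin-6 signals. For Mt2 they were Srrm4 (0.53), Gskip (0.53), Stat3 (0.49), Tmco4 (0.48) and Fgl1 (0.47), a fibrinogen-like protein secreted by the liver. The most opposite genes were Aasdhppt (-0.48), Sept9 (-0.46) and Mal2 (-0.45) for Mt1, and Usp10 (-0.46), Mmp15 (-0.46) and Prkaa2 (-0.45), a catalytic subunit of AMP-activated kinase, for Mt2.

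Slc39a14 resembled Myo18a (0.72), Golga3 (0.67), Il6ra (0.65), Map3k5 (0.65), Tmem87b (0.63) and Il1r1 (0.62). Il6ra and Il1r1 encode receptors for interleukin-6 and interleukin-1. Its opposites were Shank2 (-0.50), Lsm10 (-0.45) and Lcmt1 (-0.44). Within the 4 groups the r with Il6ra ran from 0.56 to 0.75 and that with Il1r1 from 0.39 to 0.77.

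Slc30a10 resembled Tars (0.71), a transfer RNA synthetase gene, and Clock (0.70), a core circadian activator, then Caprin1 (0.69), Ubqln1 (0.67), Clpx (0.66) and Psmd11 (0.66). Its opposites were Ciart (-0.58), a circadian repressor, Upp2 (-0.57) and Usp2 (-0.56). The r with Clock ran from 0.61 to 0.78 and that with Ciart from -0.67 to -0.52 within the groups. Slc30a1 resembled Atg2b (0.55), Man1a (0.52), Yy1 (0.52), Pcmtd1 (0.50), Fam120a (0.496) and Thrb (0.49), and ran against Anxa2 (-0.54) and the collagen genes Col3a1 (-0.44) and Col1a2 (-0.43). These r values are for the signal as deposited. In limma, the genes associated with Slc30a1 fell from 4848 to 515 with median-of-ratios scaling and to 315 with quantile normalization.

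The remaining importers had weaker companions. Slc39a5 resembled Prom1 (0.40), Crat (0.39), Abcc4 (0.39), Cs (0.38), Morc4 (0.38) and Nmt2 (0.37); Crat encodes carnitine acetyltransferase and Cs citrate synthase. It ran against the complement genes C8b (-0.43), C1ra (-0.38) and C4bp (-0.38). Slc39a4 resembled Zfyve21 (0.33), Thnsl2 (0.33), Pyurf (0.33), Txnrd2 (0.33), Vegfb (0.32) and Dennd6b (0.32), and its lowest were Ano6 (-0.27), Sh3pxd2b (-0.27) and Cdc42se2 (-0.26). Limma associated 211 genes with Slc39a4 as deposited, and 0 with median-of-ratios scaling or quantile normalization.

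In limma fits with one of the 7 genes as a covariate beside group and generation, acute phase genes rose with Mt1. Of 26 acute phase genes and interleukin-6 targets, 23 were associated with Mt1, all positively, where 13% of all genes were associated in either direction and 4.55% positively. The median slope of the list was 0.12 log2 units per log2 unit of Mt1, against -0.0044 over all genes. The strongest were Stat3 (r 0.50), the protease inhibitor gene Serpina3n (0.46), Itih4 (0.43) and Lbp (0.43), the lipopolysaccharide-binding protein gene, and those not called were Saa3, Orm3 and Cebpb. Median-of-ratios scaling and quantile normalization also gave 23, and leaving out the mice with pancreatic transcripts gave 22. Within the 4 groups r ran from 0.083 to 0.66 for Serpina3n and from 0.25 to 0.68 for Stat3. For Mt2 the count was 23 of 26 as well, where 13.1% of all genes were associated. Without the chow males of that run the counts were 17 for Mt1 and 16 for Mt2.

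The same list followed Slc39a14 in 24 of 26 genes, all positively, where 30.1% of all genes were associated and 22.4% positively. Il6ra (0.65), Il1r1 (0.62), Serpina3n (0.61) and the C-reactive protein gene Crp (0.58) led. Both scalings gave 24, leaving out the mice with pancreatic transcripts gave 22, and leaving out the chow males of that run gave 15. The share of genes associated with Slc39a14 that were positive depended on scaling, with 3271 positive and 1126 negative as deposited, against 2047 and 1859 with median-of-ratios scaling. Slc39a5 was associated with 6 of the 26, all negatively, where 3.08% of all genes were associated with it, and this count was 5 with median-of-ratios scaling, 1 with quantile normalization and 1 without the mice with pancreatic transcripts. Slc30a1 was associated positively with 15 of the 26, where 33.2% of all genes were associated, with 8 under median-of-ratios scaling and with 5 under quantile normalization.

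Glucocorticoid and fasting genes also followed Slc39a14, with 10 of 17 positive, where 22.4% of all genes were associated positively. Fkbp5 (0.58), Angptl4 (0.47), Zbtb16 (0.45) and Pck1 (0.41), the gluconeogenic enzyme PEPCK, led. For Mt1 the count was 6 of 17, all positive, led by Fkbp5 (0.39), Igfbp1 (0.32), Per1 (0.28) and Sgk1 (0.26), where 4.55% of all genes were associated positively. For Mt2 the count was 3 of 17, where 13.1% of all genes were associated in either direction. Without the chow males of that run the counts were 13 for Slc39a14, 8 for Mt1 and 5 for Mt2. Copper genes gave 2 of 13 with Mt1 and 4 of 13 with Slc39a14, in both cases led by Steap4, a metalloreductase gene (slope 0.13 with Mt1 and 0.81 with Slc39a14), and by the ceruloplasmin gene Cp (0.043 and 0.30). These shares of copper genes are close to the 13% of all genes associated with Mt1 and the 30.1% associated with Slc39a14. The counts with Mt1 that follow are read against the same 13%. Of 13 NRF2 targets tested, 2 were positive with Mt1 (Srxn1 and Hmox1) and 5 negative. Of 9 heat shock genes, 1 was positive with Mt1 (Hspb8) and 1 negative (Hspa8). Of 11 manganese and iron transport genes, 3 were negative with Mt1, among them the transferrin receptor gene Tfrc (slope -0.10).

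Clock genes split around Slc30a10. Of 16, 5 were positive (Clock 0.70, Arntl 0.65, Npas2 0.50, Nfil3 0.47 and Cry1 0.24) and 8 negative (Ciart -0.58, Per3 -0.53, Tef -0.49, Dbp -0.47, Nr1d2 -0.41, Per2 -0.32, Cry2 -0.21 and Bhlhe41 -0.21), where 31.1% of all genes were associated with it. Both scalings gave 5 positive and 9 negative. Arntl, Clock and Npas2 encode the activating limb of the circadian clock and the Per, Cry and Ciart genes belong to its repressing limb, of which Cry1 was positively associated and the others called were negative. Fasting genes with Slc30a10 were 3 positive and 8 negative of 17, with Per1 (-0.53), Ppargc1a (-0.47) and Pck1 (-0.32) negative and Fgf21 (0.27) positive. Per1 is also a clock gene, but it was counted in this list and not among the 16 clock genes. Manganese and iron transport genes were 3 positive and 1 negative of 11, a share close to the 31.1% of all genes. Among them Slc11a2 (slope 0.32), the divalent metal importer DMT1, led. All 6 Kupffer cell markers fell with rising Slc30a10 (median r -0.31), and 4 of 6 did so with quantile normalization. With Mt1, 2 of 16 clock genes were associated, both negatively (Cry1 -0.27 and Clock -0.24).

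Associations of cell type markers with Mt1 differed by list, where 13% of all genes were associated and 4.55% positively. One of 6 Kupffer markers and 3 of 4 neutrophil markers were positive, 2 of 5 stellate markers were negative, and none of 10 pancreatic acinar, 5 hepatocyte or 5 red cell markers was called by limma. Summed neutrophil signal was low throughout, with medians of 1.13 in HF males, 0.784 in chow males, 1.36 in HF females and 1.06 in chow females. One bile duct marker of 5 was positive with Mt1 and 1 negative, and 1 of 2 intestinal markers was negative. Without the chow males of that run, limma called 0 of 4 neutrophil markers with Mt1. Slc39a14, with which 30.1% of all genes were associated, ran against 4 of 5 stellate and 4 of 6 T, NK and B cell markers and rose with 4 of 5 hepatocyte markers. Slc30a1, with which 33.2% were, ran against 4 of 5 stellate and 3 of 5 bile duct markers and rose with 3 of 5 hepatocyte markers. These Slc30a1 counts are for the signal as deposited. Over all genes, those associated with Slc30a1 fell from 4848 to 515 with median-of-ratios scaling and to 315 with quantile normalization. The part of these cells in the associations was not tested.

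**Figure D5:**
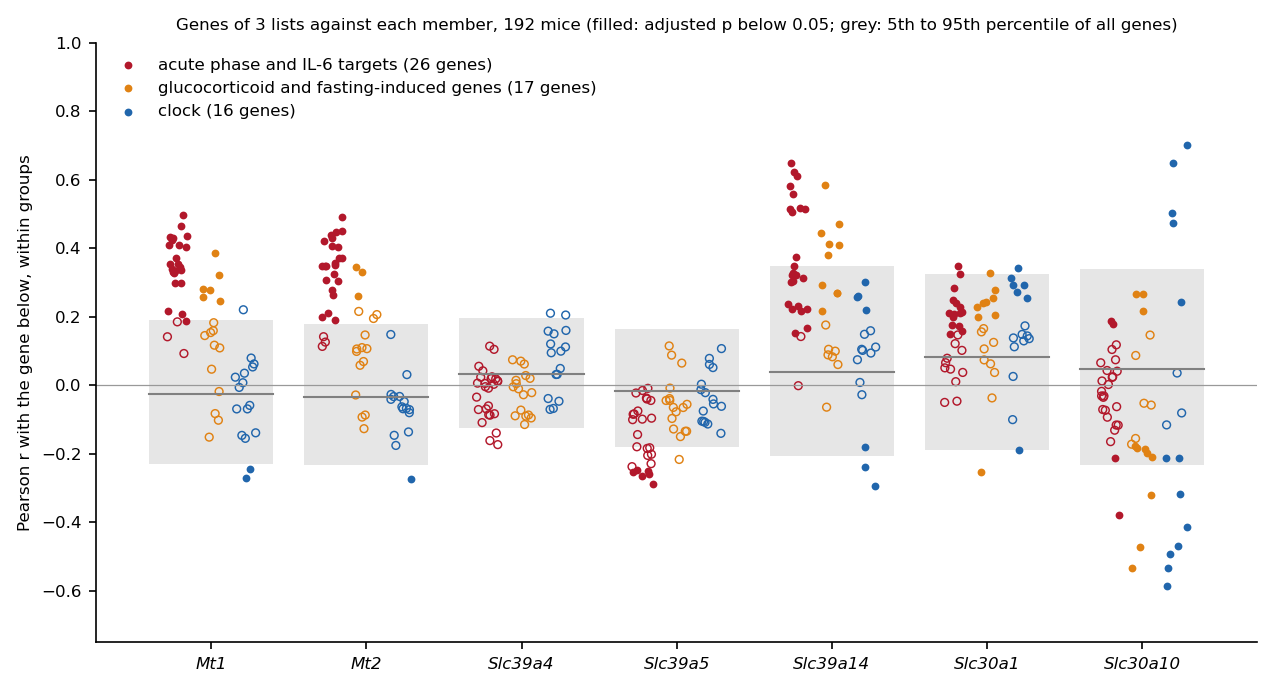
Pearson's r of each gene of 3 lists with each of the 7 genes over 192 mice, with filled points at limma adjusted p below 0.05 and a grey band from the 5th to the 95th percentile of all genes. Most acute phase genes lie above 0 for Mt1 and Mt2 and reach 0.65 for Slc39a14, and clock genes spread from -0.58 to 0.70 for Slc30a10.

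The wider zinc family was set beside these genes. Of 10 other ZIP genes tested (Slc39a12 was not), 6 were higher and 1 lower in males, with a median of 0.096 against 0.071 over all genes, and their share called was close to the 68.5% of all genes. Slc39a11 (0.52), Slc39a7 (0.45) and Slc39a10 (0.33) led, and Slc39a3 was lower (-0.086). These counts became 3 and 3 with median-of-ratios scaling and 4 and 2 with quantile normalization. All 6 other ZnT genes tested (Slc30a2 and Slc30a8 were not) were higher in males, with a median of 0.32, and 5 were with median-of-ratios scaling. The largest were Slc30a3 (0.45), Slc30a5 (0.39), Slc30a9 (0.33) and Slc30a7 (0.31). Mtf1, the zinc-sensing activator of the metallothionein genes, was higher in males by 0.24 ± 0.033 (limma adjusted p = 3.60e-11), while its targets Mt1 and Mt2 were lower there.

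On HF, 5 of the 10 other ZIP genes were lower in males and 5 in females, with none higher, where 51.2% of all genes were called in males and 33.3% in females. Slc39a2 had the largest change, -0.62 in males and -0.78 in females, and Slc39a8, the closest relative of Slc39a14, fell by 0.28 in males and by 0.22 in females. With median-of-ratios scaling the male counts were 1 higher and 2 lower and the female counts 0 and 3. Of the 6 ZnT genes, 4 were lower in males, led by Slc30a3 (-0.77), and 2 in females. Mtf1 did not pass the diet test in either sex (-0.094 in males, limma adjusted p = 0.0844, and -0.031 in females, limma adjusted p = 0.642). The sex difference in diet response was called for 1 of the 10 ZIP genes (Slc39a1) and, by limma, 0 of the 6 ZnT genes, where 8.38% of all genes were called. For sex over both diets, 7 of 11 manganese and iron genes were higher in males, led by Slc11a2, and 4 lower. In that comparison 68.5% of all genes were called, 6573 higher and 3425 lower.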

How the data were processed

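Liver mRNA (TruSeq, 100 bp single-end reads) was measured in 192 mice. Per the labels, the deposited table holds upper-quartile normalized signal per gene, with the technical repeats of each mouse in 1 column, and the submitters' processing notes name CASAVA 1.8.0 and GRCm38. The aligner, counter and annotation are not given in the sources used here. Whole reads could not be recovered for enough values (median 80.2% within 0.1 of a whole read), so no count test was run.

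Values were tested as log2(signal + 0.0629) in limma 3.58.1 (R 4.3.3), with mean-variance trend, 4 group means and the generation label, over 14602 genes above 0 in at least 46 mice and with a mean of at least the pseudocount. P-values were adjusted by Benjamini-Hochberg over all genes tested, with a threshold of 0.05. The filter and pseudocount were set to 1/100 of the median upper quartile (6.29). Correlations used residuals from group by generation means and 100000 permutations within those cells (two-sided). Gene IDs were matched to GENCODE M21 for 21022 of 21454 genes. No 2 columns were identical (r 0.895 to 0.979). Calculations were tested on simulated data.

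The text names the 7 genes, for each the 6 most and 3 least alike genes, and up to 4 genes of each list with the smallest p. Further list members were named after their values were seen. The members and lists were chosen with earlier results of these data known. Alternatives changed the pseudocount, filter, scaling, generation, replicate block and the mice included; 4 settings that left out mice were added after seeing the data. Same-numbered mice did not deviate together (median r 0.0051 over 92 pairs, 8 above 0.1), so the number was not used to pair them.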

Additional observations from a re-analysis of the deposited data

Results flagged for a closer look

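The diet response of 2 genes differed between the sexes by a test of the difference itself. For Slc39a5 the HF minus chow difference was 0.36 in males and 2.77 in females, and the male response minus the female response was -2.41 (limma adjusted p = 7.40e-08). It was -2.10 in G11L1 mice and -2.73 in G11L2 mice, and -1.48 with 10 times the pseudocount. For Slc39a4 the HF minus chow difference was -0.26 in males and 0.11 in females, and the male response minus the female response was -0.37 (limma adjusted p = 0.0368). That call for Slc39a4 was lost within each generation, under both scalings and without the filter on low values.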

How the results depend on the processing

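Of 577 log2 values of the 7 genes under other settings, 516 kept direction and call, 46 lost and 4 gained the call, and 11 turned sign. For sex over both diets, median-of-ratios scaling gave 0.039 for Slc30a1, 0.054 for Slc39a14 and -0.14 (gained) for Slc39a4, and quantile normalization 0.022, 0.066 and -0.16 (gained). G11L1 mice alone gave 0.074, 0.12 and 0.016. Slc39a14 was 0.15 in G11L2 mice and 0.079 without the 10 least similar mice. For diet in females, Mt1 was 0.0036, 0.044 and 0.28 with median-of-ratios scaling, quantile normalization and G11L1 mice, Mt2 was 0.054 in G11L1, and Slc39a14 was -0.19 with no filter, -0.15 and -0.077 under the scalings, -0.16 in G11L1 and -0.23 in G11L2. For diet in males, G11L1 gave 0.82 for Mt1, 0.95 for Mt2, -0.14 for Slc30a1, 0.034 for Slc39a14 and -0.21 for Slc39a4, and G11L2 gave -1.56 for Mt1 and -1.82 for Mt2. The scalings gave -0.095 and -0.033 for Slc39a14 and -0.15 and -0.12 for Slc39a4, and Slc39a14 was -0.094 without the 10 least similar mice. The sex difference in diet response of Slc39a4 was -0.37 with no filter, -0.31 and -0.29 under the scalings, -0.34 in G11L1 and -0.40 in G11L2. The scatter difference of Slc39a5 was 0.23 with a pseudocount 10 times smaller. Without the 8 chow males of one run of numbers, Slc39a14 was 0.066 for sex and -0.058 for diet in males, and diet in males was 0.28 for Mt1 and 0.31 for Mt2. The cause of these changes was not tested.

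Numbers of the 7 genes called were 2 in G11L1 for diet over both sexes, and for diet in males 2 under each scaling and 1 in G11L1. For the sex difference in diet response 1 gene was called with no filter, under each scaling and within each generation. For scatter by diet 1 was called with 10 times the pseudocount, and for scatter by sex 3 with a pseudocount 10 times smaller, 2 in G11L1, 0 in G11L2, 3 without the 10 least similar mice and 2 without those 8 males. Genes associated with Slc39a4 were 211, 0 under each scaling and 40 without those 8 males, those with Slc39a5 450, and 158 with 10 times the pseudocount, and those with Slc30a1 4848, and 515 and 315 under the scalings. Over all genes the sex difference in diet response was called for 1223, and for 617 and 633 under the scalings, 546 in G11L1 and 54 in G11L2. Diet was called for 4860 genes in females, and for 2348 in G11L1 and 2432 in G11L2, and for 7479 in males, and for 4906 with quantile normalization and 4930 in G11L2. With the mouse number as a replicate block (consensus correlation 0.0201) no call of the 7 genes changed, with 6 called for sex and -2.41 for the Slc39a5 difference in diet response. Slc39a5 in males near or below their median of about 3.00 reads was limited by depth.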
